A study of Mus musculus with 6 samples.

Results

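The genes described here are 107 genes of Wnt, Fgf, Bmp, Notch and hedgehog signalling, out of 18193 genes that the array named by a single symbol. They were defined by symbol alone: Wnt, Fzd, Fgf, Fgfr, Bmp, Notch, Dll, Jag, Hes, Axin, Spry or Smad followed by a digit, together with Bmpr1a, Bmpr2, Hey1, Hey2, Heyl, Shh, Ptch1, Lef1 and Ctnnb1. Each gene was read on the probe set with the highest mean log2 signal over 6 arrays. By pathway there were 33 genes of Wnt, 30 of Fgf, 20 of Bmp, 18 of Notch and 2 of hedgehog signalling. The other 4 matched the symbols only: the kinase gene Bmp2k, Fgfr1op2, and the opposite-strand transcripts Fgf2os and Fzd10os.

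RNA came from alveolar type II cells, the surfactant-making cells of the lung, isolated from mice 2 months old. Deleted pools (Insig1 ∆/∆ /Insig2 -/-) came from mice that carried SpC-rTTA, Otet-CRE and floxed Insig1 and lacked Insig2, so that doxycycline turned on Cre under the surfactant protein C promoter. Control pools (Insig1 flox/flox /Insig2 -/-) had the same floxed Insig1 and also lacked Insig2, but their mice were without SpC-rtTA or without Otet-CRE. For both groups the labels give doxycycline between E6.5 and E12.5 of embryonic life. There were 3 independent pools of RNA per group, 1 array each, and how many mice each pool held is unknown here. Because the complete Cre system was present in deleted pools alone, its effect and that of Insig1 loss cannot be told apart. Insig1 and Insig2 hold back SREBP transcription factors, and the comparison asks what differed once Insig1 was lost from type II cells that already lacked Insig2.

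In these pathways ligands bind receptors on the same or a neighbouring cell. Wnt ligands bind Frizzled receptors and stabilise β-catenin, which acts with LEF and TCF factors. Fgf ligands activate receptor tyrosine kinases, and Bmp ligands act through receptor kinases and Smad proteins. Notch receptors are cut when bound by Delta-like or Jagged ligands on a neighbouring cell, and then switch on Hes and Hey genes. In the adult alveolus Wnt signals help to maintain type II cells, while Fgf10 and Fgf7 from mesenchymal cells act on epithelial Fgfr2. In bulk RNA from a cell isolate, fewer cells of a type and less RNA per cell cannot be told apart.

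Array medians lay between 426 and 479 in signal units. Insig1 itself had signals of 2300.1, 3325 and 2959.5 in control pools and 1252.5, 1442 and 1750.4 in deleted pools, a log2 difference of -0.95 with an adjusted p of 0.068 (limma), and it passed with a common median, array weights or the pool number as a block. Whether its probe set lies in the deleted part is not known here. On the first principal component control replicate 3 had a score of -39.1, away from the other pools (-12.9 to 18.7). Of 9 type II cell markers past the filter none passed the test. Of 11 macrophage markers 5 rose, with summed signals of 40891 to 60266 in control and 98608 to 106966 in deleted pools. Of 12 airway markers all had log2 differences below 0 and 2 fell, with summed signals of 482713 to 626222 in control and 401574 to 515330 in deleted pools.

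None of the signalling genes passed the threshold. A gene was tested where its mean log2 signal reached the 40th percentile of all probe sets (8.08), which 69 of the 107 did. By limma, 0 of these 69 were higher and 0 lower at an adjusted p under 0.05, where 0.649% of all 12952 genes tested passed, 0.625% higher and 0.0232% lower. At p under 0.05 before adjustment (a nominal p), 1 was higher and 9 were lower, where 6.05% of all genes were higher and 6.02% lower. Deleted pools lay wholly above control pools for 2 members and wholly below for 9, which 9.2% and 7.9% of all genes did (17.1% in either direction). The smallest adjusted p among the members was 0.30. The median log2 difference, deleted minus control, was -0.09 over the 69 members and -0.0049 over all genes tested. When each array was shifted to a common median, 3 members were higher and 1 lower at a nominal p under 0.05. Of all 12952 genes, 1106 were then higher and 406 lower, against 784 and 780 before the shift. The members' median was -0.011 where that of all genes was 0.07.

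**Figure D1:**
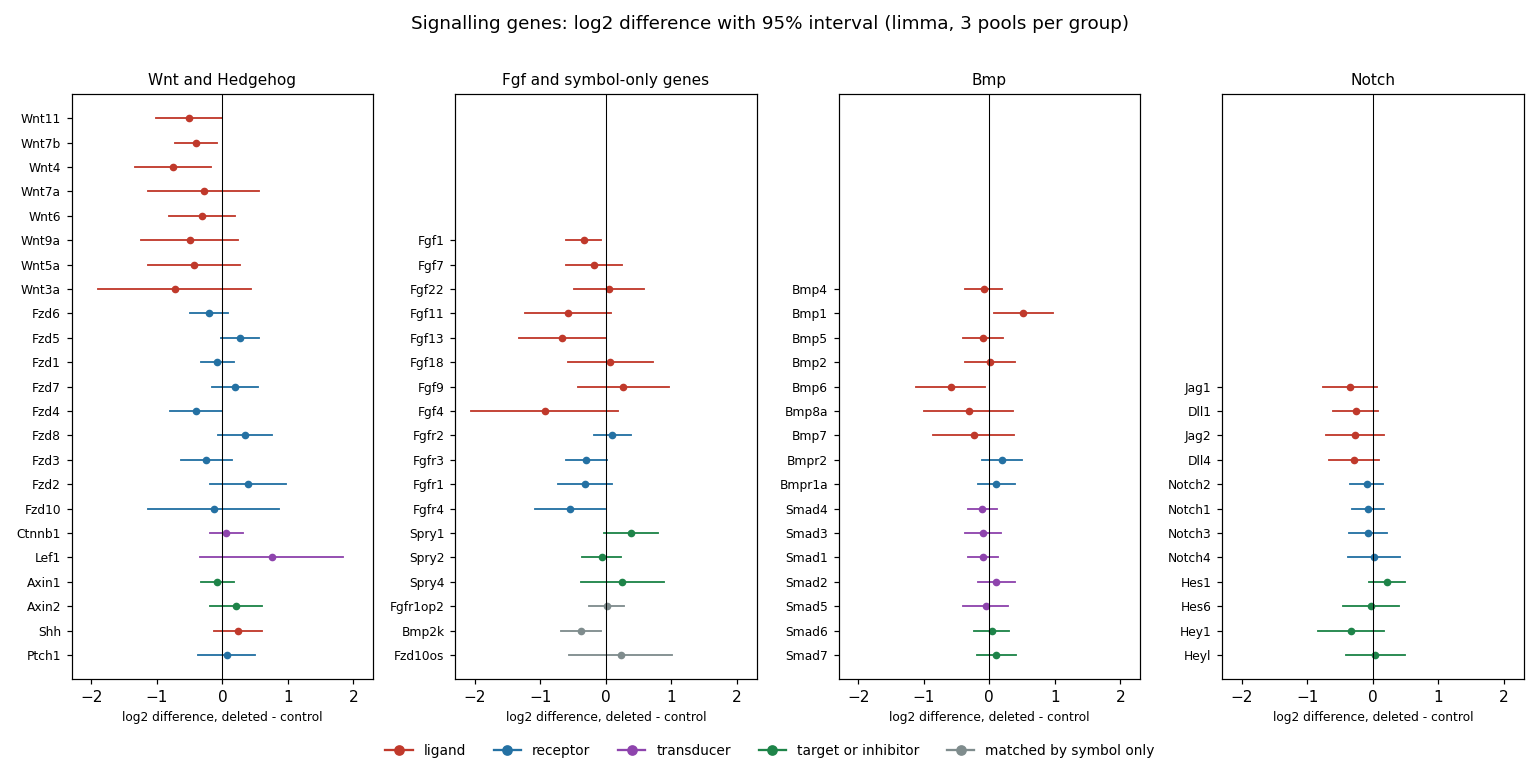
Log2 difference (deleted minus control, x axis) of the 69 tested signalling genes, 1 gene a line, in 4 panels by pathway and coloured by role. Points are estimates and bars are limma's 95% intervals from 3 pools per group; 59 of the 69 intervals include 0.

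Intervals show what size of change these arrays leave room for. The 95% interval of limma included 0 for 59 of the 69 genes, and for 55 it lay wholly between -1 and 1 on the log2 scale. A change of more than 2-fold was therefore outside the interval for most members. The interval extended 0.40 on either side of the estimate at the median, and 1.17 for the widest.

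The other 38 members lay below the filter and were not tested. They had mean log2 signals from 3.66 to 7.91 and included 29 genes counted as ligands. Among them were 11 Wnt ligands (Wnt1, Wnt2, Wnt2b, Wnt3, Wnt5b, Wnt8a, Wnt8b, Wnt9b, Wnt10a, Wnt10b and Wnt16). Counted as Fgf ligands were 14 (Fgf2, Fgf3, Fgf5, Fgf6, Fgf8, Fgf10, Fgf12, Fgf14, Fgf15, Fgf16, Fgf17, Fgf20, Fgf21 and Fgf23). Of these, Fgf12 and Fgf14 encode intracellular relatives that do not act as secreted ligands. The rest were Bmp8b, Bmp10, Bmp15, Dll3, Fzd9, Smad9, Spry3, Hes2, Hes3, Hes5, Hes7, Hey2 and Fgf2os. The filter fell in a gap, with Fgf3 (7.85) and Fgf2os (7.91) just under it and Fgf4 (8.32) and Wnt3a (8.40) just over it. Next under it were Wnt8b (7.84), Wnt8a (7.81) and Wnt10a (7.69).

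None of the Wnt ligand genes passed. The 8 past the filter had log2 differences below 0, from -0.75 to -0.29 with a median of -0.47, where 50.9% of all genes tested lay below 0. At a nominal p under 0.05 there were 3 lower, Wnt4, Wnt7b and Wnt11, where 6.02% of all genes were lower. The count of 8 held under each scaling tried and became 7 with array weights or without deleted replicate 1. Wnt3a passed the filter on the mean only through its control pools (group means of 8.76 in control and 8.04 in deleted pools), so its lower value is tied to its being counted. With no filter 15 of 19 Wnt ligand genes lay below 0, where 53.5% of all genes did. Wnt10a, just under the filter, had a log2 difference of 0.74 with every deleted pool above every control pool. Airway markers (12 of 12 below 0, median -0.34) and mesothelial markers (5 of 5 below 0, median -0.47) also lay lower. The mesothelial list included the bright keratin gene Krt19 (mean log2 signal 15.06, log2 difference -0.52). The part of these markers in the Wnt ligand result was not tested.

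**Figure D2:**
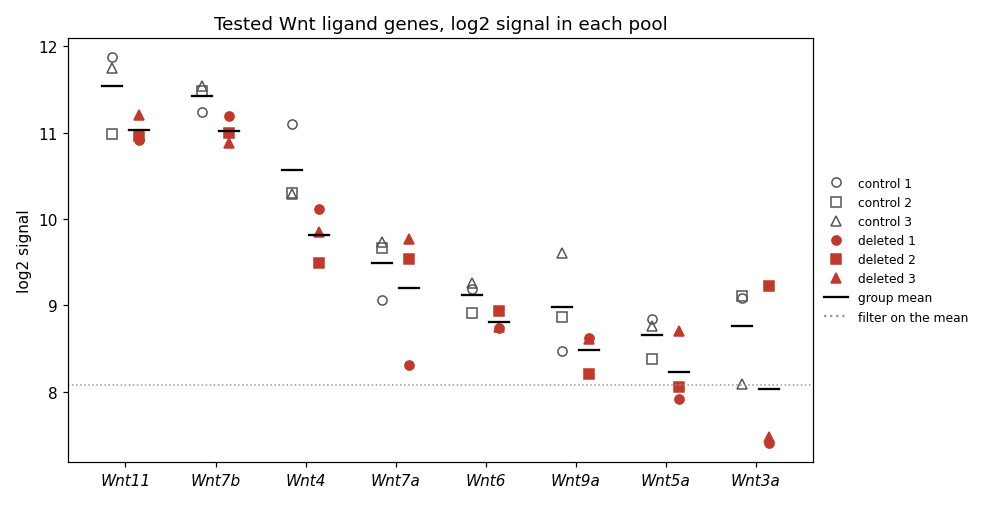
Log2 signal (y axis) of the 8 tested Wnt ligand genes in each pool, control pools open and deleted pools filled, with the group mean as a bar and the filter on the mean (8.08) dotted. Wnt4 and Wnt7b are the only genes plotted whose groups do not overlap.

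Wnt4 encodes a ligand that signals in epithelial and kidney development. Its signals were 2200.4, 1265.5 and 1255 in control pools and 1108, 717.5 and 920.0 in deleted pools, a log2 difference of -0.75 ± 0.26 (SE, adjusted p = 0.30, limma). All deleted pools lay under all control pools, and control replicate 1 was far above the rest. Without control replicate 1 the value was -0.48. The other tested Wnt4 probe set gave -0.18, with overlapping groups.

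Wnt7b is made by lung epithelium and acts on the mesenchyme beneath it during development. It read 2425, 2860 and 2979 in control pools and 2335.5, 2040.6 and 1880 in deleted pools, a log2 difference of -0.40 ± 0.14 (SE, adjusted p = 0.32, limma). The groups did not overlap, and the gap between the nearest pools was narrow. A dimmer Wnt7b probe set, at a mean log2 signal of 8.11 close to the filter, gave -1.75, also without overlap.

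Wnt11, a ligand known for signalling that does not use β-catenin, had signals of 3753, 2030.3 and 3448.5 in control pools and 1926, 1988 and 2363 in deleted pools. Its log2 difference was -0.51 ± 0.22 (SE, adjusted p = 0.40, limma). Control replicate 2 lay among the deleted pools while the other control pools lay above them. Without control replicate 2 the value was -0.79 and passed the threshold (adjusted p = 0.023), and Wnt11 was the only member to pass lower in any fit run.

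The other tested Wnt ligands had overlapping groups. Wnt3a, a classical activator of β-catenin, had the second largest value of the family at -0.73 ± 0.52 (SE), with signals of 545, 550.3 and 273 in control and 169, 598 and 178 in deleted pools. Its highest pool was deleted replicate 2, so the mean hid opposite readings. Wnt9a gave -0.50, Wnt5a -0.44, Wnt6 -0.31 and Wnt7a -0.29 on the log2 scale. Single pools set some of these: Wnt9a was -0.19 without control replicate 3, Wnt5a -0.28 without deleted replicate 1, and Wnt7a 0.16 without deleted replicate 1.

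Upstream sequence is shown for 2 of these ligand genes, and for Lef1 and Axin2, which read β-catenin signalling. Each run is the 250 bases before a listed start of the gene from RefSeq on build GRCm38.p6, 5′ to 3′ along the gene. Capitals mark the TCF and LEF core TCAAAG on either strand. For Lef1, the last of 4 listed starts is printed because it holds matches, while the other 3 hold none. That start lies far downstream of the other 3, whose stretches end at 131110296 to 131112790. For Wnt11 the first of 2 listed starts is printed, and the other holds none. Both were chosen after the matches were seen.
Wnt4, chr4:137277385-137277634, forward strand: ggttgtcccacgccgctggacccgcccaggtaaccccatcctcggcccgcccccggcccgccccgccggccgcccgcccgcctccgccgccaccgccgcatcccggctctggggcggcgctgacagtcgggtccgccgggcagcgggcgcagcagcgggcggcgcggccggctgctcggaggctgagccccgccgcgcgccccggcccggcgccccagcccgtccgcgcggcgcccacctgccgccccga
Wnt11, chr7:98834862-98835111, forward strand: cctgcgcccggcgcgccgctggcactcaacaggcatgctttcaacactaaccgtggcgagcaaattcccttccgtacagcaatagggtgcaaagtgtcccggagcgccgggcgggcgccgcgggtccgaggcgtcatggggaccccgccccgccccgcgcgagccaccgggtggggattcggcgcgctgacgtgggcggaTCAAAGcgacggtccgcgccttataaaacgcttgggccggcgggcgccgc
Lef1, chr3:131156044-131156293, forward strand: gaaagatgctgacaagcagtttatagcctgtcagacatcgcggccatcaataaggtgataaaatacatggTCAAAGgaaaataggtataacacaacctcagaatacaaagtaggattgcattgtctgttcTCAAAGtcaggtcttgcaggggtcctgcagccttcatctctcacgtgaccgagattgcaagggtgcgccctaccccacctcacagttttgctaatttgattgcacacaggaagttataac
Axin2, chr11:108920099-108920348, forward strand: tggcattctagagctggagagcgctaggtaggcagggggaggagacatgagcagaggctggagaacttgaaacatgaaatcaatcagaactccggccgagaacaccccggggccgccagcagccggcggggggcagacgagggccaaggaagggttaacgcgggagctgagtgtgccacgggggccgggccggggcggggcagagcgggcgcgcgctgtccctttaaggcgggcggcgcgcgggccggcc

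The core was present in Wnt11 at 50 bases before its first listed start and in Lef1 at 180 and 120 bases before its last. These letters were not in the printed stretches of Wnt4 and Axin2. Of all promoter windows of 300 bases (250 before the start and 50 after it), 16% held the core on either strand. It was in 8 of the 95 windows found for 76 members (8.42%). The RBPJ core TGGGAA of Notch signalling was in 22 of these 95 windows (23.2%) and in 25.6% of all. Median GC content was 65.7% in member windows and 52.7% in all.

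Frizzled receptor genes showed no common direction. Of 9 tested, 4 lay above 0 and 5 below, with a median log2 difference of -0.08, and none passed. Fzd4, also the receptor for norrin in blood vessels, had signals of 2413, 2942 and 3019 in control and 2131, 1693.5 and 2570.1 in deleted pools, a log2 difference of -0.40 ± 0.18 (SE, adjusted p = 0.40, limma). Deleted replicate 3 lay above the lowest control pool, and without deleted replicate 2 the value was -0.25. The other tested Fzd4 probe set gave -0.12, with overlapping groups.

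Fzd5, which signals through β-catenin, had signals of 4381, 4034 and 3345 in control and 4505, 4975 and 4617 in deleted pools. Every deleted pool lay above every control pool, at a log2 difference of 0.27 ± 0.13 (SE, adjusted p = 0.44, limma). A dimmer probe set gave 0.29, again without overlap, and without control replicate 3 the value was 0.16.

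Among the remaining Frizzled genes, Fzd6 lay below in every deleted pool by a small margin, at -0.20 on the log2 scale. Fzd2 gave 0.40, Fzd8 0.35 and Fzd7 0.19, all with overlapping groups. Other tested Fzd2 probe sets gave 0.46 without overlap and -0.06 with overlap. Fzd3 gave -0.25, Fzd10 -0.13 and Fzd1 -0.08, also overlapping. The 3 other tested Fzd3 probe sets gave -0.59 and -0.52, both without overlap, and 0.04. The 2 other tested Fzd6 probe sets, both dim, gave 0.81 and 0.30 with overlap.

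Downstream of the receptors, Ctnnb1, which encodes β-catenin, read 82749, 90703 and 84930.3 in control and 83651, 95703 and 90201 in deleted pools. The groups overlapped, at a log2 difference of 0.06 with a 95% interval from -0.19 to 0.31 (limma). A dimmer Ctnnb1 probe set gave 0.25 with every deleted pool above every control pool, and another gave 0.12 with overlap. Axin2 is a feedback inhibitor and a standard target of β-catenin. It read 2069, 2614 and 1629 in control and 2345, 2350.7 and 2447 in deleted pools, and deleted pools lay within the wide range of control pools. Its log2 difference was 0.20 (interval -0.19 to 0.60), which became 0.034 without control replicate 3 and 0.37 without control replicate 2. That of Axin1, a scaffold of the β-catenin destruction complex, was -0.08.

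Lef1, a nuclear partner of β-catenin that T cells also express, turned on a single pool. Its signals were 606, 571 and 2425 in control pools and 1751, 1252 and 1824 in deleted pools. Control replicate 3 was the highest of all pools while the other control pools were the lowest. The log2 difference was 0.75 ± 0.48 (SE, adjusted p = 0.59, limma). Without control replicate 3 it was 1.43 and passed (adjusted p = 0.013), and without control replicates 1 and 2 in turn it was 0.43 and 0.39.

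Lymphocyte markers had the same order of pools in part. Cd3d, a T cell receptor chain gene, had signals of 172.5, 207 and 1367 in control and 1251, 766 and 961.5 in deleted pools, with control replicate 3 highest and the other control pools lowest. Cd3e, another such chain, read 709, 609 and 395 in control and 767, 689.7 and 333.5 in deleted pools and did not share it. Over 11 lymphocyte markers, Ptprc of all leukocytes included, summed signals were 15466, 14039 and 32589 in control and 34701, 26194 and 29568.5 in deleted pools. Ptprc, with a mean log2 signal of 13.33, weighed heavily in these linear sums. All 11 markers had log2 differences above 0 with a median of 0.60. None passed by limma, and 3 were higher at a nominal p under 0.05. Their part in the Lef1 result was not tested.

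**Figure D3:**
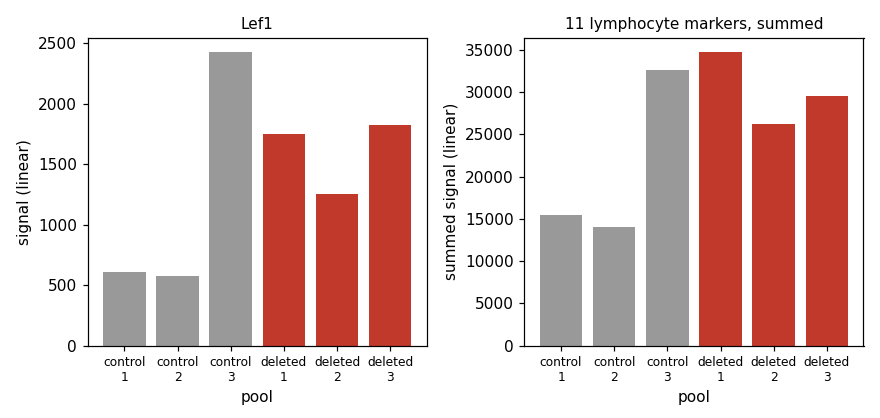
Linear signal of Lef1 (left) and summed linear signal of 11 lymphocyte markers (right) in each of the 6 pools. Control pools are grey and deleted pools red. The sum includes Ptprc, a bright gene of all leukocytes. In both panels control replicates 1 and 2 are the 2 lowest bars and control replicate 3 reaches the range of the deleted pools or above.

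Other genes of Wnt signalling were read on a list of co-receptors, secreted inhibitors and intracellular parts. None of 29 tested passed by limma, with 2 higher and 2 lower at a nominal p under 0.05 and a median log2 difference of -0.04. Kremen1, a receptor for Dickkopf inhibitors, had signals of 2057, 2938 and 2166 in control and 1587, 1479 and 1547 in deleted pools, all deleted pools lower (log2 -0.62, adjusted p = 0.19). Ror1, a receptor for Wnt5a, gave 0.89 (adjusted p = 0.19) and Lgr4, a receptor for R-spondins, 0.53 (adjusted p = 0.29), both with every deleted pool above every control pool. Ror1 passed without control replicate 2 (1.14, adjusted p = 0.013) and with array weights (0.88, adjusted p = 0.043).

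None of the Fgf ligand genes passed. Of 8 tested, Fgf11 and Fgf13 counted among them, 5 lay below 0 (median -0.26), a share near the 50.9% of all genes. At a nominal p under 0.05, 2 were lower, Fgf1 and Fgf13, where 6.02% of all genes were. Fgf1, a ligand that can activate all Fgf receptors, had signals of 7354.5, 6999 and 7153 in control and 6427, 5155 and 5494 in deleted pools. Every deleted pool lay below the closely grouped control pools, at a log2 difference of -0.34 ± 0.12 (SE, adjusted p = 0.31, limma). Its 2 other tested probe sets gave -0.11 each, with overlapping groups.

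Fgf13 encodes an intracellular relative that binds sodium channels and does not act as a secreted ligand. It read 573, 598 and 744 in control and 403, 569.5 and 279.6 in deleted pools, a log2 difference of -0.66 ± 0.29 (SE, adjusted p = 0.41, limma). The groups did not overlap but deleted replicate 2 nearly met the lowest control pool, and without deleted replicate 3 the value was -0.40. Fgf11, of the same intracellular group, gave -0.58 with overlap. Fgf4 had the largest value of the 69 tested members at -0.93 ± 0.50 (SE), which 1 pool carried: deleted replicate 3 read 97.1 where the other 5 pools lay between 340.4 and 502. Without that pool the value was -0.31.

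Fgf ligands with known roles in the lung had overlapping groups. Fgf7, made by mesenchymal cells for epithelial receptors, gave -0.18, Fgf9, of mesothelium and early epithelium, 0.27, and Fgf18, which acts in alveolar growth, 0.07 on the log2 scale. Fgf22 gave 0.05. The second tested Fgf7 probe set gave -0.46 and the second of Fgf22 -0.54, and the Fgf9 interval ran from -0.43 to 0.96. Fgf10 lay below the filter in mean signal. Mesenchymal markers had a median of -0.13, with none of 11 past the threshold by limma and 1 higher and 1 lower at a nominal p under 0.05.

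Of the receptors, Fgfr2, which takes up Fgf7 and Fgf10 signals in lung epithelium, read 21264, 18018 and 16749 in control and 21443, 20553 and 17938 in deleted pools. The groups overlapped, at a log2 difference of 0.10 with a 95% interval from -0.18 to 0.38 (limma). Fgfr4 had signals of 515, 686 and 547 in control and 395, 354 and 447 in deleted pools. All deleted pools lay below, at -0.54 ± 0.24 (SE, adjusted p = 0.40, limma), while a second Fgfr4 probe set of similar signal gave 0.03. Fgfr3 gave -0.30 and Fgfr1 -0.31, both with overlapping groups.

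Sprouty genes are switched on by Fgf receptor signalling and dampen it. Spry1 read 14190.3, 14984 and 12121 in control and 13410.5, 22722 and 18916 in deleted pools, so deleted replicates 2 and 3 were high and deleted replicate 1 lay among the controls. Its log2 difference was 0.39 ± 0.18 (SE, adjusted p = 0.43, limma), and 0.22 without deleted replicate 2. Spry4 gave 0.25 and Spry2 -0.07, both overlapping, and the other tested Spry4 probe set gave -0.52.

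On the list of other Fgf pathway genes none of 18 tested passed by limma, with 1 higher and 1 lower at a nominal p under 0.05 and a median of 0.02. Map2k1, the kinase that activates ERK, gave 0.30 (adjusted p = 0.32), Fgfbp1, which releases Fgf from matrix, -0.42 (adjusted p = 0.34) and the docking protein gene Gab1 -0.21 (adjusted p = 0.44). Fgfbp1 passed without control replicate 2 (-0.59, adjusted p = 0.036). Values for Etv5 and Dusp6, targets of Fgf receptor signalling, were chosen after they were seen. Etv5, which type II cells need, read 28320, 27887 and 15263 in control and 32269, 31644 and 29427 in deleted pools. All deleted pools lay above, at 0.44 (adjusted p = 0.45), which became 0.15 without control replicate 3. Dusp6 gave 0.11.

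Bmp genes had a median of -0.07 over 16 tested. At a nominal p under 0.05, 1 was higher and 1 lower, where 6.05% of all genes were higher and 6.02% lower. The higher was Bmp1, which is named with the Bmp ligands but encodes a protease that trims procollagen. It had signals of 3370, 3946 and 2227 in control and 3971, 4592 and 4752 in deleted pools. Every deleted pool lay above every control pool, by a very small margin at the nearest, at a log2 difference of 0.52 ± 0.20 (SE, adjusted p = 0.36, limma). Control replicate 3 was far below the rest, and without it the value was 0.28.

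The lower was Bmp6, a ligand known for its part in iron control. It read 1452, 946.6 and 1707 in control and 934, 756 and 972 in deleted pools, a log2 difference of -0.59 ± 0.23 (SE, adjusted p = 0.36, limma). Control replicate 2 lay within the deleted pools, and without it the value was -0.84 with an adjusted p of 0.051. The other tested ligands had overlapping groups, with Bmp2 at 0.01, Bmp4, which is needed for lung budding, at -0.09, Bmp5 at -0.10, Bmp7 at -0.24 and Bmp8a at -0.32.

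Bmp receptor and Smad genes lay close to 0 on the probe sets used. Bmpr2, the type II receptor gene whose loss is linked to pulmonary hypertension, read 16186, 14665 and 12168 in control and 16701, 17642 and 14558 in deleted pools. The groups overlapped, at 0.19 with a 95% interval from -0.11 to 0.49 (limma), and Bmpr1a gave 0.11. Smad4, the partner shared by Bmp and TGF-β signals, gave -0.11 with all deleted pools slightly under all control pools. Smad1 (-0.10) and Smad5 (-0.06) carry Bmp signals, Smad2 (0.11) and Smad3 (-0.09) carry TGF-β and activin signals, and Smad6 (0.03) and Smad7 (0.11) inhibit them. All of these had overlapping groups except Smad4. Other tested Smad5 probe sets gave -0.34 without overlap and 0.0013 with overlap.

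The list of other Bmp and TGF-β genes held the single gene that passed on any of the lists of other pathway genes. Inhba, which encodes the activin A subunit, had signals of 516.5, 631 and 775 in control and 1255, 1449 and 1667 in deleted pools. It rose 2.29-fold, a log2 difference of 1.19 ± 0.20 (SE, adjusted p = 0.040, limma), with all deleted pools above all control pools. It missed the threshold without control replicate 1 (0.14), without deleted replicates 1, 2 and 3 (0.12, 0.20 and 0.22), without an intensity trend (0.098) and with no filter (0.066). Macrophage markers moved with it (11 of 11 above 0, median 0.90), and their part in the result was not tested. The other 24 tested genes of this list did not pass, and its median was -0.02.

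Id genes, targets of Bmp signalling, were singled out after their values were seen. Id4 had signals of 6115, 4222 and 5466 in control and 3243, 3058 and 2721 in deleted pools. All deleted pools lay below, at -0.80 ± 0.16 (SE, adjusted p = 0.070, limma), and it passed without control replicate 2 (-0.95, adjusted p = 0.0096), with array weights (adjusted p = 0.011) and with the pool number as a block (adjusted p = 0.044). Id3 gave -0.27 without overlap and Id1 -0.32 with overlap, while Id2 had a log2 difference close to 0 (interval -0.30 to 0.29). Tgfb1, also chosen so, gave 0.63 (adjusted p = 0.20), and it passed without control replicate 3 (0.82, adjusted p = 0.018) and with array weights (adjusted p = 0.043).

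Of 12 tested Notch genes none passed the threshold and none had a nominal p under 0.05. All 4 tested ligand genes were below 0 on the log2 scale, from -0.35 to -0.26, where 50.9% of all genes tested lay below 0. Jag1, the Jagged ligand, read 7739, 12086 and 10320.5 in control and 6333, 8290.2 and 8809 in deleted pools. The ranges overlapped, as control replicate 1 lay below deleted replicates 2 and 3, at -0.35 ± 0.18 (SE, adjusted p = 0.48, limma). Without control replicate 1 it was -0.53.

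Dll4, a ligand of blood vessel cells, read 966, 865 and 871 in control and 766, 714.5 and 731 in deleted pools, all deleted pools lower (log2 -0.29, adjusted p = 0.54). A second Dll4 probe set gave 0.01. Dll1 gave -0.26 and Jag2 -0.27, with overlap. Endothelial markers had a median of -0.12, with none of 10 past the threshold and none at a nominal p under 0.05 by limma.

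The Notch receptor genes lay close to 0. Log2 differences were -0.07 for Notch1 (interval -0.31 to 0.17), -0.10 for Notch2 (-0.35 to 0.15), -0.07 for Notch3 (-0.36 to 0.22) and 0.02 for Notch4 (-0.39 to 0.42), with overlapping groups throughout. A dimmer Notch1 probe set gave -0.59 with a nominal p of 0.041 and an adjusted p of 0.47.

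Hes1, the best known Notch target and a repressor of differentiation genes, read 4995, 4650.0 and 4438 in control and 4795.5, 5569.5 and 5986 in deleted pools. The ranges overlapped at deleted replicate 1, and the log2 difference was 0.21 ± 0.12 (SE, adjusted p = 0.53, limma). Hey1, another target, read 2238, 1484 and 2286 in control and 1182, 1797 and 1791 in deleted pools, at -0.33 with overlap, and -0.13 without deleted replicate 1. Heyl (0.04) and Hes6 (-0.03), which opposes Hes1, were near 0.

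On the list of other Notch genes none of 22 tested passed by limma, with 2 higher and 2 lower at a nominal p under 0.05 and a median of 0.05. Rfng, a glycosyltransferase that modifies Notch receptors, read 4297, 4857 and 4216.5 in control and 6696, 7529.7 and 6031 in deleted pools. Every deleted pool lay above every control pool, at 0.60 ± 0.12 (SE, adjusted p = 0.094, limma). It passed without control replicate 2 (0.66, adjusted p = 0.028), with array weights (0.64, adjusted p = 0.033) and with the mean over probe sets (0.74, adjusted p = 0.048). Dtx1, a ubiquitin ligase gene of the pathway, gave 0.49 (adjusted p = 0.34) and Mib1, which activates ligands, -0.34 (adjusted p = 0.40).

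Hedgehog signalling had 2 members. Shh, the ligand that lung epithelium sends to mesenchyme, read 6463, 6507 and 4791 in control and 7805, 7415.5 and 5715 in deleted pools, at 0.24 with a 95% interval from -0.13 to 0.61 (limma). Control replicate 3 was lowest, the groups overlapped at deleted replicate 3, and without control replicate 3 the value was 0.09. Ptch1, receptor and target of the pathway, gave 0.07. Of 9 other hedgehog genes tested none passed by limma, with none higher and 1 lower at a nominal p under 0.05, and 7 lay below 0 (median -0.20). That 1 was the co-receptor gene Boc (-0.66, adjusted p = 0.36), while Gli1, the target gene read most often for this pathway, gave -0.40 and Gli3 -0.19.

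By role rather than pathway, ligand genes had the lowest median. Of 28 tested, Bmp1, Fgf11 and Fgf13 counted among them, 22 lay below 0, where 50.9% of all genes did. Their median log2 difference was -0.30, where 20 receptor genes had -0.07, 7 transducer genes -0.06 and 11 target or inhibitor genes 0.04. Fgf4 (group means of 8.79 in control and 7.86 in deleted pools) and Wnt3a passed the filter on the mean only through their control pools, so their place below 0 is tied to their being counted. With no filter 44 of 57 ligand genes, Fgf12 and Fgf14 counted among them, lay below 0, where 53.5% of all genes did. The count of 22 was 22 under quantile normalization and under a shift to a common median, where the median was -0.25 and -0.22. Of all genes, 48.7% and 37.6% lay below 0 in these settings. The median of the ligand genes' deviations from their own means was 0.12, 0.10 and 0.20 in control pools and -0.08, -0.10 and -0.11 in deleted pools.

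Signal strength moved with this split. When all tested genes were cut by mean signal into 4 groups of 3238, the dimmest group (log2 8.08 to 9.58) had a median difference of -0.07 with 58% of genes below 0, and the brightest had 0.02 with 45.9% below 0. Of the 28 ligand genes 14 fell in the dimmest group, 11 of them below 0. In the next group 4 of 4 ligands lay below 0, in the third 5 of 7 and in the brightest 2 of 3. The part of signal strength in the ligand result was not tested.

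**Figure D4:**
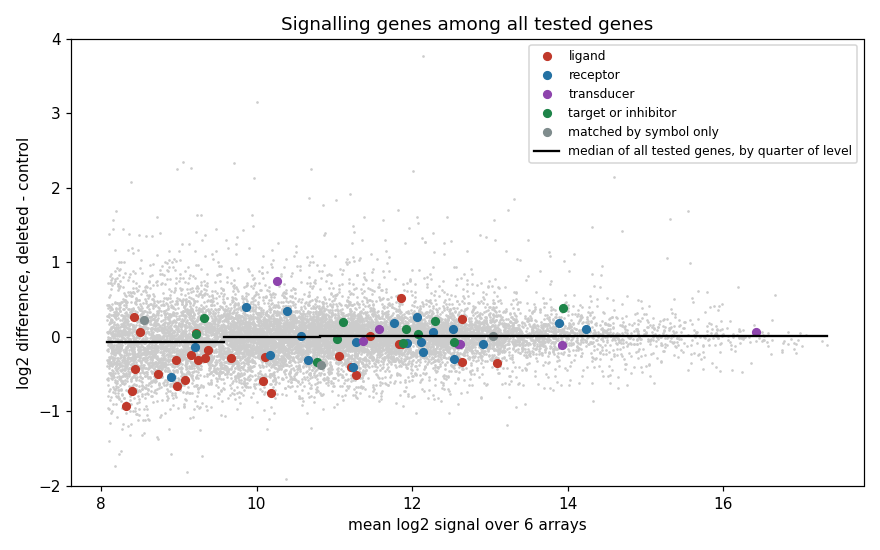
Log2 difference (deleted minus control, y axis) against mean log2 signal over 6 arrays (x axis) for all 12952 tested genes in grey and the signalling genes coloured by role, with the median of all genes in each of 4 groups by signal as black lines. The grey spread widens at low signal, and most ligand genes lie below 0 in the left part of the plot.

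Of the symbol-only genes, Bmp2k had signals of 2062, 2146 and 2012 in control and 1709, 1436 and 1653.5 in deleted pools. All deleted pools lay below, at -0.38 ± 0.13 (SE, adjusted p = 0.32, limma), and its 2 other tested probe sets gave -0.20 and -0.21 with overlap. Fzd10os (0.23) and Fgfr1op2 (0.01) had overlapping groups.

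The plot of values with each pool left out shows how far single pools set the members' values. The range over the 6 fits ran from -0.90 to -0.48 for Wnt4 and from 0.28 to 0.69 for Bmp1, and was narrow for Fgf1 (-0.43 to -0.27).

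**Figure D5:**
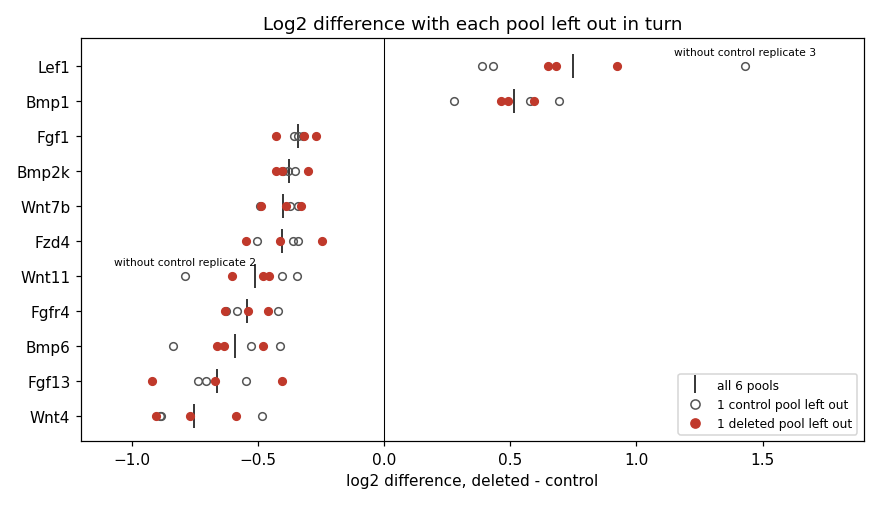
Log2 difference (deleted minus control, x axis) of the 10 members with a nominal p under 0.05 and of Lef1, with all 6 pools (black tick) and with 1 control pool (open) or 1 deleted pool (filled) left out. The labelled points, Wnt11 without control replicate 2 and Lef1 without control replicate 3, are the only ones past an adjusted p of 0.05.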

How the data were processed

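Signal intensities on a linear scale had been made with MAS5 (no version named), per the submitters' processing notes, from biotin-labelled RNA, and as deposited they had nearly the same trimmed mean on every array. The deposited intensities under 1 were set to 1, log2 was taken, and no further normalization was done. Detection calls were not used, so a signal is no proof of a transcript. Genes were named through the platform annotation; all 107 members were found in a RefSeq gene table and 0 symbols differed. Probe sets under the 40th percentile of mean log2 signal (8.08, signal 271) were left out, and each gene kept its brightest probe set.

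All 12952 genes were fitted together with limma 3.58.1 in R 4.3.3 (lmFit, eBayes with an intensity trend), two-sided, 3 pools against 3, with Benjamini-Hochberg adjustment over all genes and a threshold of 0.05. With 3 pools against 3 an exact permutation test cannot go under 0.1 (two-sided), so none was run. Values measure the spread between pools, and the number of arrays limits precision. The steps were tested on simulated data. The signalling genes, roles and lists were chosen with earlier results of these data known, so they get counts and medians and no set test. Some genes of the lists are not reported here. Named were all members at a nominal p under 0.05, all receptors past the filter, the brightest member and the largest differences in each role, and on each other list the genes past the threshold or the 3 with the smallest p; others are said to be chosen later. Promoter windows came from RefSeq (GRCm38.p6), and those of Wnt7b and Hes1 were not used here. Alternatives were quantile normalization, a common median, array weights, leaving out each pool, the mean over a gene's probe sets, the pool number as a block, adding 16 to the signal before log2, eBayes without the trend, and dropping the filter or raising it to the 60th percentile. Figures were drawn with matplotlib 3.10.9.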

Additional observations from a re-analysis of the deposited data

How the results depend on the processing

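No alternative with all 6 pools brought a member past the threshold; with 1 pool left out, 0 to 1 member passed higher (Lef1, without control replicate 3) and 0 to 1 lower (Wnt11, without control replicate 2). Counts at a nominal p under 0.05 were 1 higher and 9 lower in the reported fit, where 784 and 780 of all 12952 genes were. Over all genes these were 1106 and 406 with a common median, 1064 and 1149 with array weights, and 895 and 919 with the replicate block. The higher count was 3 with a common median, with array weights and with the replicate block, 2 with the mean over probe sets, 0 without an intensity trend and 0 to 3 with a pool left out. The lower count was 1 with a common median, 5 with the mean over probe sets and 3 to 8 with a pool left out. Common-median medians were -0.011 over all members, -0.12 for Wnt, -0.097 for Fgf, 0.0046 for Bmp, -0.0058 for Notch and -0.22 for ligand genes, against -0.09, -0.20, -0.18, -0.07, -0.08 and -0.30. Such a shift adds the same constant to every gene's log2 difference, and it took the median of all genes from -0.0049 to 0.07. The Bmp median changed sign through that constant alone, and it stayed below the median of all genes. The Wnt median was -0.092 with array weights, -0.077 with the filter at the 60th percentile and -0.13 with the mean over probe sets, where that of Bmp was -0.013. That of ligand genes was -0.25 with quantile normalization and with array weights. With a pool left out, medians ran from -0.11 to -0.050 over all members, -0.23 to -0.13 for Wnt, -0.23 to -0.14 for Fgf, -0.11 to -0.023 for Bmp, -0.14 to -0.054 for Notch, -0.35 to -0.23 for ligand genes and -0.57 to -0.36 for Wnt ligand genes. Apart from the constant of the common median, the cause of these changes was not tested. Same-numbered pools deviated together weakly (correlations of 0.07, 0.04 and 0.15), where pairs of unlike number ran from -0.13 to 0.05. The highest of these, deleted replicate 2 with control replicate 1, lay above the same-numbered pair of replicate 2. Whether a shared number marks a shared batch is not given by the labels and was not tested. With the number as a block, 132 genes passed over all genes against 84, and 0 members. In that fit 3 members were higher and 8 lower at a nominal p under 0.05. Among other pathway genes the block took Id4 past the threshold. Probe sets near the filter have the widest errors.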

Other observations

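Members were often read by more than 1 probe set, and these did not always point the same way. Of 220 member probe sets 128 passed the filter, 59 of which the gene-level comparison leaves out, and 0 of the 128 passed an adjusted p under 0.05 over all 27022 probe sets tested (limma). Among the 59 left out, 3 had a nominal p under 0.05, all lower in deleted pools: those of Fzd3 (log2 -0.59), Notch1 (-0.59) and Wnt7b (-1.75). Of 41 members with at least 2 tested probe sets, all probe sets of a gene had the same sign for 23. Of the 10 members at a nominal p under 0.05, 7 had several, and the signs were the same for 6, the exception being Fgfr4. The Lef1 probe set that lay below the filter gave 1.22, in the direction of the one used (0.75).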
